A study of Mus musculus with 8 samples.

Results

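Wt1, Pax2 and the 4 Sall genes encode transcription factors on which kidney formation rests, and their RNA was followed in whole kidneys of mouse embryos at E14.5. The 6 genes were chosen by name from 21291 gene rows, and 6 of 6 had a row. All 6 passed the low-count filter, a count of at least 10 after scaling for library depth in at least 4 of 8 libraries, as did 14974 genes in all. There were 4 control and 4 mutant libraries of polyadenylated RNA, each from 1 kidney pair; controls are called littermates, but litters are not identified. Controls carried Six2-GFPcre tg/+, Etv4+/- and Etv5fl/fl, and mutants carried Six2-GFPcre tg/+, Etv4-/- and Etv5fl/fl. Both groups therefore carried the Cre transgene, which is active in nephron progenitors and their descendants, and 2 floxed Etv5 alleles, and they differed by label at Etv4, whose null allele is not limited to that lineage. The series asks what losing Etv4 and Etv5, ETS-family factors downstream of FGF and GDNF-RET signalling, does to kidney gene expression.

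WT1 is a zinc finger protein of the nephron progenitors that stays on in the podocytes of the glomerulus and is also made in the gonad and in mesothelium. PAX2, a paired-domain protein, is made both in the nephron lineage and in the ureteric bud, the branching epithelium that becomes the collecting system, and it acts there with its relative PAX8 and with EYA1 and SIX2. SALL1 is a zinc finger protein that holds progenitors in their state and recruits the NuRD histone deacetylase complex. SALL2, SALL3 and SALL4 are its relatives, of which SALL4 is best known in embryonic stem cells and germ cells.

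Total estimated counts ran from 15515139 to 39548327 per library, with control 4 the shallowest; 18.4% of its counts came from Lars2, against at most 0.476% elsewhere. The targeted gene Etv4 averaged 2686 ± 250.4 scaled counts (SD, n = 4) in the heterozygous controls and 239 ± 59.8 (SD, n = 4) in the mutants, and it fell by 3.51 on the log2 scale (limma adjusted p = 2.6e-05). Etv5 stood at 3614 ± 491 and 2120 ± 511 and missed the threshold (limma adjusted p = 0.106). Library names hold a number of unstated meaning, which controls 1 and 2 share with mutants 1 and 2 (the first name set) and control 4 shares with mutant 4 (the second). Of the 14974 genes, 12 were higher and 33 lower in mutants at a limma adjusted p below 0.05, which is 0.301% of all genes in either direction, 0.0801% higher and 0.22% lower. Summed scaled counts of 4 Y-linked genes were 3586 to 3716 in controls and 0 to 19.6 in mutants, so sex goes with genotype in these embryos, and the effects of each cannot be told apart in any comparison here. In whole kidneys, fewer cells of a type and less RNA per cell cannot be told apart either. Markers of cap mesenchyme, ureteric bud and stroma were present in all 8 libraries.

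None of the 6 regulators passed the test for a difference between genotypes, which does not show that their levels were equal. The number called by limma was 0 of 6, against 0.301% of all genes, and 0 of 6 had an unadjusted p below 0.05, against 12% of all genes. Limma voom on the recovered counts also called 0 of 6. The point estimate was negative for 4 of the 6, with a median log2 fold change of -0.12 over the 6 against 0.0087 over all genes. Groups overlapped for each of the 6, while they did not overlap for 8.6% of all genes. The authors' deposited table of 644 genes, in which no adjusted p exceeds 0.0498, lists 0 of the 6. It does list Etv4 and Etv5, and genes of lists described below that had few or no limma calls here. It holds 8 of 12 progenitor genes, 4 of 17 partners of PAX2 or WT1 and 5 of 16 WT1 genes. Also there are 5 of 9 PAX2 or SALL1 genes and 5 of 10 proximal tubule genes. Podocyte genes number 3 of 12, ureteric genes 4 of 12, mesothelium genes 1 of 7 and NuRD subunits 0 of 14.

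**Figure D1:**
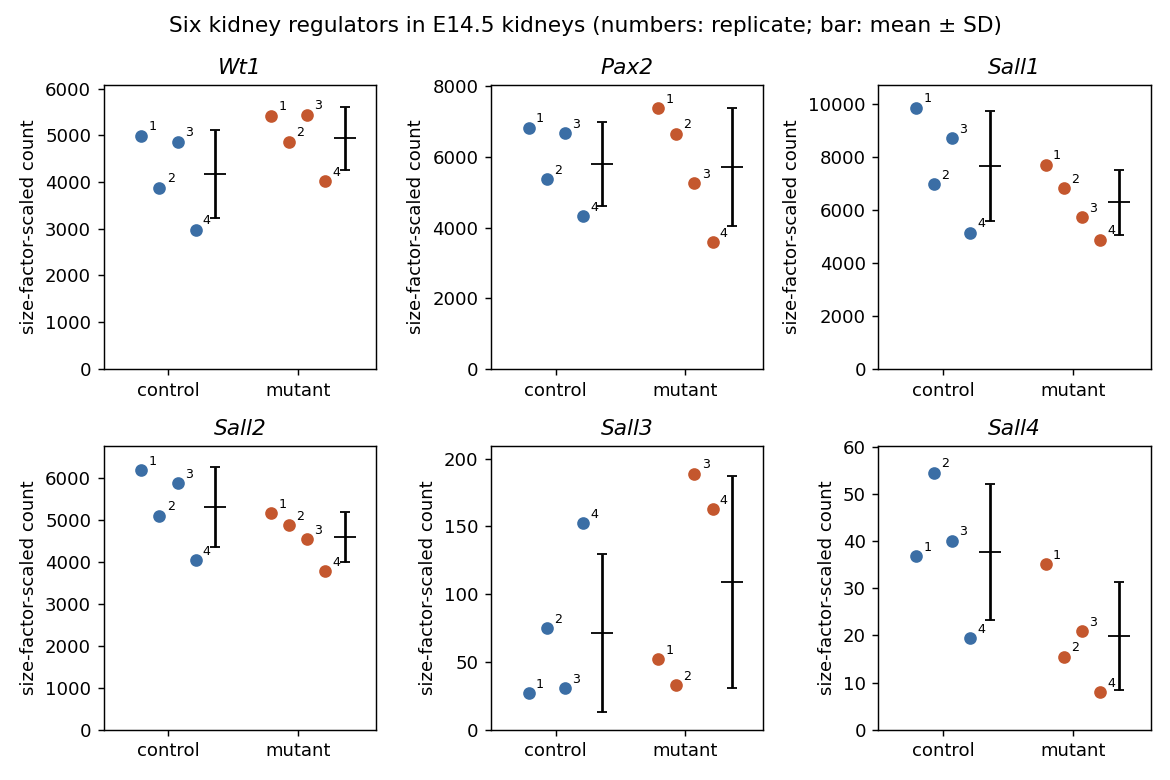
Size-factor-scaled counts (vertical axes, linear from 0) of the 6 genes in each library, with 4 control points and 4 mutant points numbered by replicate and the mean ± SD beside them. The groups overlap in every panel, and Sall3 and Sall4 lie far below the other 4 genes.

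Per kilobase of the longest annotated coding transcript, 4 of the genes lay close together in controls. Sall1 stood at 1458 ± 393 scaled counts per kilobase, Wt1 at 1352 ± 304, Pax2 at 1330 ± 271 and Sall2 at 1030 ± 186 (mean ± SD, n = 4). In mutants the same levels per kilobase were 1195 ± 236 for Sall1, 1596 ± 217 for Wt1, 1312 ± 384 for Pax2 and 892 ± 116 for Sall2. In controls Sall1, Wt1 and Pax2 lay within each other's spread, and Sall2 had the lowest mean of the 4 in both groups. Wt1 falls to 674 ± 152 in controls when the level is set over the union of its annotated exons, so its place depends on the length used. Sall1 was above Sall2 in 8 of 8 libraries with either length. Sall3, at 10.1 ± 8.23 per kilobase in controls and 15.4 ± 11.04 in mutants, and Sall4, at 7.43 ± 2.84 and 3.91 ± 2.26, lay far below the others.

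Wt1 (ENSMUSG00000016458, GRCm38 chromosome 2, 105126529 to 105173616, plus strand) had 4987, 3882, 4863 and 2981 scaled counts in controls 1 to 4. It had 5420, 4859, 5439 and 4012 in mutants 1 to 4. Mutants 1 and 3 lay above every control, mutants 2 and 4 lay within the control range, and control 4 was the lowest library. The log2 fold change was 0.26 (SE 0.17, 95% interval -0.12 to 0.64, limma adjusted p = 0.582), an interval that runs from 0.921-fold to 1.55-fold. It was 0.22 in the first name set and 0.43 in the second. It was 0.11 without control 4. Mesothelium, another source of Wt1, overlapped between genotypes: its 7 markers summed to 902 to 2037 scaled counts in controls and 1063 to 3181 in mutants. Of these markers 6 were tested and 0 were called, against 0.301% of all genes. Of those 6, 5 had positive fold changes, with a median of 0.49, and the 2 with the smallest p were Lrrn4 (1.49, limma adjusted p = 0.357) and Upk3b (1.14, limma adjusted p = 0.496). The median was 0.13 without mutant 4, 0.30 without control 1, 0.77 without control 4, 0.79 without mutant 2 and 0.11 in the first name set. The part of mesothelium in the Wt1 values was not tested. The counts are per gene, so the protein forms that WT1 splicing gives are not separated here.

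Pax2 (ENSMUSG00000004231, chromosome 19, 44756045 to 44837871, plus strand) had 6829, 5377, 6666 and 4317 scaled counts in controls 1 to 4. It had 7376, 6658, 5257 and 3585 in mutants 1 to 4. The highest and the lowest of the 8 libraries were both mutants, so the mutants enclosed the whole control range. The log2 fold change was -0.05 (SE 0.23, 95% interval -0.55 to 0.46, limma adjusted p = 0.956), and the interval excludes a fall to below 0.681-fold. Its sign differed between the name sets, at 0.21 in the first and -0.27 in the second. The point estimate was 0.04 without control 1, 0.03 without control 3 and 0.16 without mutant 4. It was positive (0.08 to 0.42) when scaled by total counts or left without depth correction. The annotated loci 1700039E22Rik and Gm20395 overlap Pax2 on the opposite strand, as Gm14261 does Sall4; whether counting used strand is unstated, so their reads may not be separable.

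Sall1 (ENSMUSG00000031665, chromosome 8, 89027235 to 89044162, minus strand) had 9874, 6971, 8713 and 5142 scaled counts in controls 1 to 4. It had 7718, 6832, 5728 and 4879 in mutants 1 to 4. Mutant 4 was the lowest library and control 4 the next, and the other 3 mutants lay within the control range. The log2 fold change was -0.27 (SE 0.21, 95% interval -0.73 to 0.20, limma adjusted p = 0.649), or -0.44 without control 4 (adjusted p = 0.198), -0.13 without control 1 and -0.15 without mutant 4. It was -0.19 in the first name set and -0.08 in the second. Sall2 (ENSMUSG00000049532, chromosome 14, 52311172 to 52328762, minus strand) had 6187, 5101, 5879 and 4035 scaled counts in controls 1 to 4. It had 5163, 4874, 4544 and 3782 in mutants 1 to 4. For Sall2, 4 of 4 mutants lay below the control mean but 1 below every control. The Sall2 log2 fold change was -0.20 (SE 0.15, 95% interval -0.52 to 0.13, limma adjusted p = 0.63), the narrowest interval of the 6, and it was -0.32 without control 4 (adjusted p = 0.182), -0.12 without control 1 and -0.11 without mutant 4. It was -0.16 in the first name set and -0.09 in the second. Without depth correction Sall1 and Sall2 turned positive, at 0.20 and 0.27, where the median of all genes itself stood at 0.48.

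Sall1 and Sall2 had the most similar profiles among the 6 genes: after each gene's own mean was subtracted, their log2 values differed by 0.12 (root mean square over 8 libraries). Start-site windows from RefSeq (GRCm38.p6, from 250 bases before to 50 after each start, read 5′ to 3′ on the gene's strand) are shown for these 2 genes because of that similarity, with both windows for Sall2 and the most upstream of 3 for Sall1. Windows were examined for 3 of the 6 genes, Pax2, Sall1 and Sall2. No window was available for Wt1 or Sall4, and Sall3 was left out by choice. The window results therefore do not cover Wt1, Sall3 or Sall4. Capitals mark GGAA, the core of the sites bound by ETS factors such as ETV4 and ETV5, or TTCC, the same core on the other strand.
Sall1, chr8:89044113-89044412, minus strand: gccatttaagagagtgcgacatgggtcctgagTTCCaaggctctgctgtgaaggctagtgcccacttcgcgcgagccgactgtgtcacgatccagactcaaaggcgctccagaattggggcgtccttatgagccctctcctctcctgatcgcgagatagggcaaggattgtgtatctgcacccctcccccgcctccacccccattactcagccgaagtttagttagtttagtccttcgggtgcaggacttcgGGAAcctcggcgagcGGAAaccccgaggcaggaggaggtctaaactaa
Sall2 upstream start, chr14:52328621-52328920, minus strand: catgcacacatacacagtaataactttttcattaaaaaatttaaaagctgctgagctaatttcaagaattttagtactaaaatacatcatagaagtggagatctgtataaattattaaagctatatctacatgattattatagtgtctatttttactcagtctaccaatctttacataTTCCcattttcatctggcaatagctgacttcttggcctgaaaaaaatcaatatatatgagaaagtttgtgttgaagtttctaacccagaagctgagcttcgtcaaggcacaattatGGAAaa
Sall2 downstream start, chr14:52316274-52316573, minus strand: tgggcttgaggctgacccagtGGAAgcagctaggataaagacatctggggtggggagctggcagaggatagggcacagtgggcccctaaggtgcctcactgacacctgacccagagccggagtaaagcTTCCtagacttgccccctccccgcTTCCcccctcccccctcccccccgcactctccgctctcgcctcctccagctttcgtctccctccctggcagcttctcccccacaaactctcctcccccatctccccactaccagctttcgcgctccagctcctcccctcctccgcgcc
The Sall1 window shown has 3 GGAA cores and 57.3% G and C, and the other 2 Sall1 windows have 1 and 2 cores and 70% and 79.7% G and C. The upstream Sall2 window is rich in A and T, with 30.3% G and C, 1 CpG and 2 cores, and the downstream one has 65% G and C, 10 CpGs and 3 cores. GGAA on either strand is in 96.0% of 32851 such windows, with a median of 3 per window, so its presence does not set these genes apart. The longer ETS site CCGGAAG was searched on both strands and is in 8.86% of all windows and in 0 of the 8 windows of Pax2, Sall1 and Sall2; it contains the GGAA core.

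Sall3 (ENSMUSG00000024565, chromosome 18, 80966376 to 80986771, minus strand) varied more between libraries than between genotypes. It had 26.7, 75.03, 30.8 and 152 scaled counts in controls 1 to 4. It had 52.2, 32.6, 189 and 163 in mutants 1 to 4. Control 4, mutant 3 and mutant 4 were the 3 high libraries and the other 5 had at most 75.03, so each genotype held both high and low kidneys. The log2 fold change was 0.61 (SE 0.69, 95% interval -0.93 to 2.15, limma adjusted p = 0.771), and it was -0.12 in the first name set and 0.09 in the second. Leaving out any 1 library gave values from 0.23 to 1.09, and without control 4 the adjusted p was 0.392. Estimated counts were 29 to 217 per library, and exact Poisson 95% intervals, which cover counting error only, were 19.4 to 41.6 for the 29 of control 1 and 189 to 248 for the 217 of mutant 3. The same 3 libraries held most proximal tubule RNA. Summed over 10 proximal tubule genes, controls 1 to 4 had 313, 918, 584 and 6264 scaled counts. Mutants 1 to 4 had 875, 1182, 6817 and 17886. All 6 of the tubule genes tested had positive fold changes, with 0 called, against 0.301% of all genes. Their median was 2.02, or 0.89 without mutant 4 and 0.51 in the first name set. The part that tubule content plays in the Sall3 values was not tested.

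**Figure D2:**
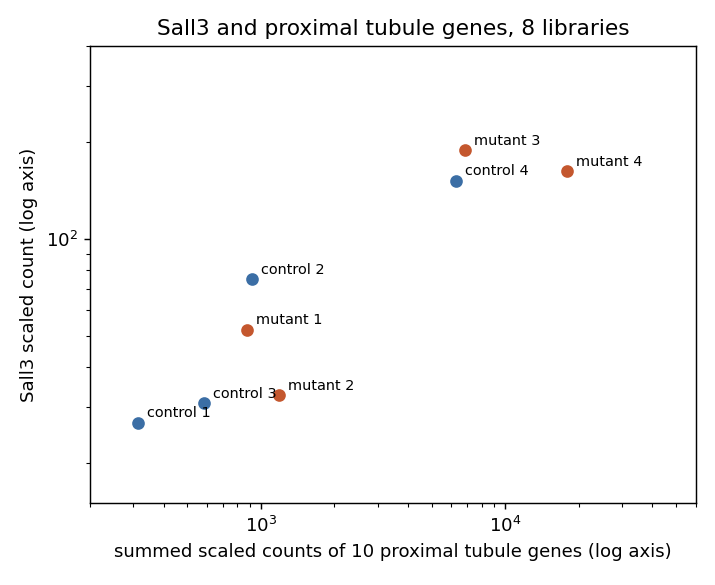
Sall3 scaled count (vertical, log axis) against the summed scaled counts of 10 proximal tubule genes (horizontal, log axis), 1 point per library, controls in blue and mutants in orange. Control 4, mutant 3 and mutant 4 stand apart, with 152, 189 and 163 Sall3 counts and tubule sums of 6264, 6817 and 17886.

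Sall4 (ENSMUSG00000027547, chromosome 2, 168748332 to 168767943, minus strand) was the scarcest of the 6. It had 36.8, 54.5, 40.1 and 19.4 scaled counts in controls 1 to 4. It had 35.1, 15.5, 20.9 and 7.91 in mutants 1 to 4. Mutants 2 and 4 lay below every control, and mutants 1 and 3 lay within the control range. The log2 fold change was -0.98 (SE 0.51, 95% interval -2.12 to 0.17, limma adjusted p = 0.49), the largest estimate of the 6 in size. It was -0.91 in the first name set and -1.19 in the second, and without mutant 4 it was -0.63. Depth limits this gene: control 4 gave 7 estimated counts (exact Poisson 95% interval 2.81 to 14.4, or 7.79 to 39.9 scaled) and mutant 4 gave 9 (4.12 to 17.1, or 3.62 to 15.02 scaled). A fall to 0.229-fold and a rise to 1.12-fold both lie within the interval. Germ cells are another source of Sall4. Of their markers, Pou5f1 was at 0 in every control and reached at most 0.816 scaled counts in mutants, and Ddx4 ran from 3.68 to 36.0 in controls and from 0 to 5.71 in mutants. Of the gonad and germ cell list, the 3 of 10 genes tested were Dhh, Inha and Nr5a1, so neither Pou5f1 nor Ddx4 was tested. Of these 3, 1 had a positive and 2 a negative fold change, and 0 were called, against 0.301% of all genes. The 2 with the smallest p were Nr5a1 (2.26, limma adjusted p = 0.337) and Dhh (-0.43, limma adjusted p = 0.814). Summed over the 7 listed genes with a row, the level was 120.0 to 227 in controls and 74.7 to 209 in mutants. The part of such cells in the Sall4 values was not tested.

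**Figure D3:**
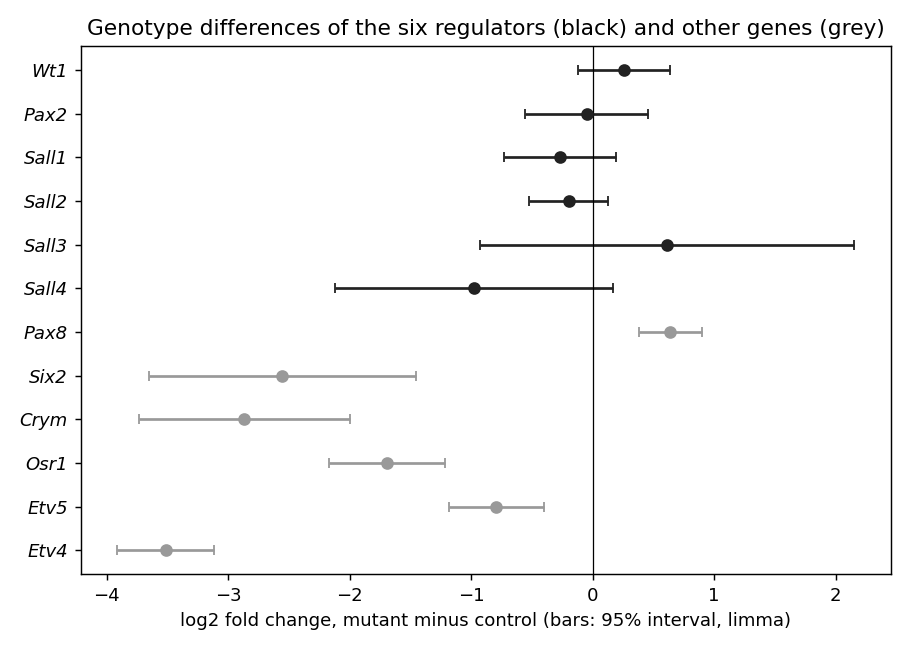
Log2 fold change, mutant minus control (horizontal axis, points with 95% intervals from limma), for the 6 regulators in black and 6 other genes in grey. All 6 black intervals include 0, from -0.98 for Sall4 to 0.61 for Sall3, while Six2, Crym, Osr1, Etv5 and Etv4 lie to the left of 0 and Pax8 to the right.

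The 4 abundant regulators lay on the same side of their own means in 5 of 8 libraries; no such count was made for other genes. Averaged over Wt1, Pax2, Sall1 and Sall2, the deviation from each gene's own mean was 0.33 in control 1 and 0.25 in control 3 on the log2 scale, and -0.41 in both control 4 and mutant 4. All 4 were below their mean in control 4 and mutant 4 and above it in controls 1 and 3 and mutant 1. They were split in the other 3: in mutant 3 Wt1 was at 0.28 and Pax2, Sall1 and Sall2 at -0.09, -0.25 and -0.10, in control 2 Wt1 and Pax2 were below and Sall1 and Sall2 above, and in mutant 2 Sall2 was at -0.0029 and the others above. Their coefficient of variation among controls ran from 18.1% for Sall2 to 26.9% for Sall1, and among mutants from 13.0% for Sall2 to 29.3% for Pax2. Sall3 was on the opposite side in controls 1, 3 and 4 and mutants 1 and 4. Its highest library held 7.07 times its lowest, against 1.64 to 2.06 times for the 4 abundant genes. The shallow depth of control 4 and its Lars2 share move with its low values, and their part was not tested; mutant 4 was as low at 35308934 total counts.

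**Figure D4:**
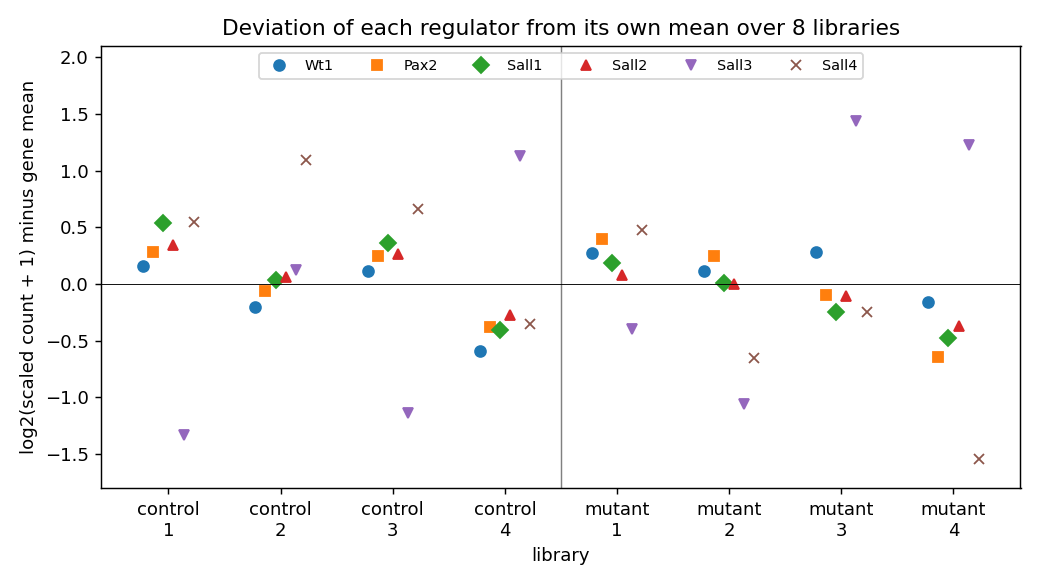
Deviation of log2(scaled count + 1) from each gene's own mean (vertical axis) for the 6 genes in each of 8 libraries, controls left of the grey line and mutants right of it. Wt1, Pax2, Sall1 and Sall2 lie below 0 together in control 4 and mutant 4, where Sall3 is at 1.13 and 1.23.

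Ratios between members within a library do not depend on the depth scaling, and 15 were compared, a choice made once values were known. The Wt1 to Sall1 ratio of scaled counts was 0.505, 0.557, 0.558 and 0.580 in controls 1 to 4. In mutants 1 to 4 it was 0.702, 0.711, 0.950 and 0.822. The Wt1 to Sall2 ratio was 0.806, 0.761, 0.827 and 0.739 in controls and 1.05, 0.997, 1.20 and 1.061 in mutants. Every mutant lay above every control in both, although neither Wt1 nor Sall1 nor Sall2 separated the groups alone. The difference in log2 ratio was 0.52 for Wt1 to Sall1, from -0.86 ± 0.085 to -0.34 ± 0.20, and 0.46 for Wt1 to Sall2, from -0.35 ± 0.075 to 0.10 ± 0.11 (mean ± SD, n = 4 each). By exact permutation (two-sided) each gave p = 0.02857, the lowest value 4 against 4 libraries can reach, and adjusted p = 0.143 over the 15 pairs, so neither passed. They were 0.41 and 0.39 in the first name set and 0.50 and 0.52 in the second. Wt1 to Sall4 also separated the groups (difference 1.24, exact permutation p = 0.02857, adjusted p = 0.143), but narrowly. Its lowest mutant ratio was 154.5 in mutant 1 and its highest control ratio 153.9 in control 4. That control value rests on 7 estimated Sall4 counts (exact Poisson 95% interval 2.81 to 14.4), so counting error alone exceeds the gap. Against Wt1, 10.3% of 14973 genes were lower in every mutant than in every control, and 3 of the 5 other members were, Sall4 by that narrow gap.

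Pax2 did not follow Wt1 in the same way. The Wt1 to Pax2 ratio was 0.730, 0.722, 0.730 and 0.690 in controls 1 to 4, a narrow range, and 0.735 and 0.730 in mutants 1 and 2 but 1.03 and 1.12 in mutants 3 and 4. Its log2 difference of 0.31 (exact permutation p = 0.0571, adjusted p = 0.171) was 0.01 in the first name set and 0.70 in the second. Sall1 to Sall2 was the steadiest ratio between genotypes, with a difference of -0.07 (exact permutation p = 0.514). Podocyte RNA also varied between libraries: summed over 12 podocyte genes, scaled counts ran from 12619 to 16210 in controls, and mutants 1 to 4 had 16319, 15420, 21564 and 25133. Of 11 podocyte genes tested 10 had positive fold changes and 0 were called, against 0.301% of all genes. Their median was 0.72, or 0.41 without mutant 4 and 0.34 in the first name set. Ureteric genes, which mark the other main source of Pax2, summed to 22723 to 30750 in controls and to 24216, 24036, 20100 and 17479 in mutants 1 to 4. The 12 ureteric genes include Etv5, floxed in both groups, and Ret and Wnt11. Of the 12, 8 had negative fold changes and 0 were called, against 0.301% of all genes. Their median was -0.24, or -0.08 in the first name set. The part of podocyte or ureteric content in these ratios was not tested.

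**Figure D5:**
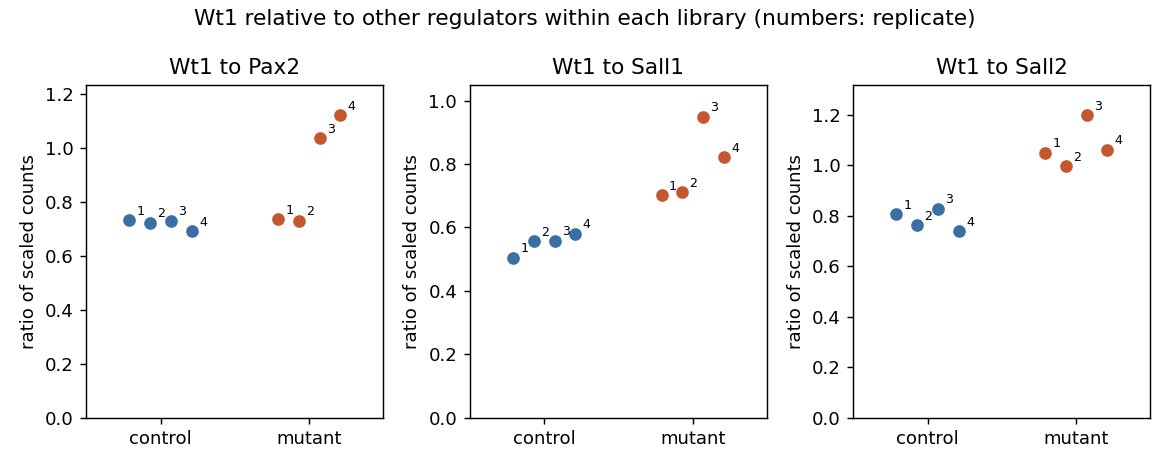
Ratio of Wt1 scaled counts to those of Pax2, Sall1 and Sall2 within each library (vertical axes, linear from 0), points numbered by replicate. Mutants lie above controls for Sall1 (0.702 to 0.950 against 0.505 to 0.580) and Sall2, while for Pax2 mutants 1 and 2 lie with the controls.

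The regulators were next set against markers of the cap mesenchyme, where nephron progenitors lie. All 12 genes of the nephron progenitor list had negative fold changes, with a median of -0.94 against 0.0087 over all genes. Of these 12, 3 were called, against 0.22% of all genes called lower: Crym (-2.87, SE 0.39, limma adjusted p = 0.0185), Osr1 (-1.69, SE 0.21, adjusted p = 0.0152) and Capn6 (-0.95, SE 0.10, adjusted p = 0.0056). Without control 3 none of the 3 passed. Osr1 was also lost without mutant 1 or mutant 3, and Crym without control 1, mutant 3 or mutant 4. The limma adjusted p of these lost calls ran from 0.0525 to 0.112. Six2, which maintains nephron progenitors, had 13695, 8458, 11175 and 6108 scaled counts in controls and 3297, 2799, 1181 and 608 in mutants, and it missed the limma threshold (-2.55, SE 0.49, adjusted p = 0.0774).

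Relative to the mean of that list in the same library, Wt1 was 1.5 log2 units higher in mutants than in controls, Pax2 1.19, Sall2 1.04 and Sall1 0.97. For these 4 genes 4 of 4 mutants lay above every control (two-sided exact permutation, p = 0.02857 each, the lowest possible, adjusted p = 0.0429 over the 6 genes). The values were 1.28, 1.26, 0.89 and 0.86 in the first name set and 1.67, 0.97, 1.14 and 1.16 in the second, in the same order of genes. For these 4 genes, leaving out any 1 library raised the adjusted p to 0.0857, since 4 against 3 libraries cannot pass here. Sall3 (1.85, exact permutation p = 0.143, adjusted p = 0.171) and Sall4 (0.26, exact permutation p = 0.543) did not pass. The same separation held for 81.1% of 14962 genes. The list mean itself differed by -1.24 (mutants minus controls, log2 scale), which was known when the test was chosen, so these p-values restate that difference and say nothing particular to the regulators.

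Of 17 proteins that act with PAX2 or WT1 or are close relatives, 0 were called higher and 0 lower, against 0.0801% and 0.22% of all genes. Negative fold changes were found for 16 of the 17, and the median was -0.15, against 0.0087 over all genes. Pax8, the PAX2 relative of the forming nephron, had the smallest p and was the single positive member (0.64, SE 0.12, limma adjusted p = 0.0688), with 2388 ± 420 scaled counts in controls and 3684 ± 200.1 in mutants. Six2 had the next smallest p (-2.55, limma adjusted p = 0.0774), with no overlap between groups. Among the others, fold changes were -0.04 for Paxip1, -0.05 for Tle1, -0.08 for Basp1 and -0.13 for Wtap, 4 genes named because they lay near 0, with their values already known. Of 14 NuRD subunits, 0 were called, against 0.301% of all genes. Their median was -0.09 (-0.05 without mutant 4), against 0.0087 over all genes. Gatad2a came closest to the threshold (-0.40, SE 0.09, limma adjusted p = 0.119).

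Among 16 genes described as bound or regulated by WT1 in fetal kidney, 14 were tested. Of these, 2 were lower in mutants, against 0.22% of all genes, and 0 were higher, against 0.0801%. Their median was -0.27, against 0.0087 over all genes. The 2 were Scx, encoding the transcription factor scleraxis (-0.81, SE 0.12, limma adjusted p = 0.0329), and Fgf20, a progenitor FGF ligand (-2.53, SE 0.40, limma adjusted p = 0.0386). Scx had 512, 420.2, 498 and 495 scaled counts in controls and 303, 286, 249.9 and 258 in mutants, and Fgf20 had 185, 147, 181 and 160.5 against 60.4, 35.1, 18.3 and 15.8. Scx passed in 2 of 8 fits that leave out 1 library (those without control 2 or 4) and Fgf20 in 2 (those without control 4 or mutant 1), with adjusted p from 0.0666 to 0.168 in the others. Of 9 genes described as needing PAX2 or SALL1, 0 were called, against 0.301% of all genes. Their median was -0.54, or -0.83 without control 4, against 0.0087 over all genes. The 2 with the smallest p pointed in opposite directions: Sfrp2, a secreted Wnt modulator, at 0.57 (SE 0.17, limma adjusted p = 0.224) and Ret, the GDNF receptor of the ureteric tip, at -0.77 (SE 0.24, limma adjusted p = 0.237). Eya1 is in this list, the partner list and the progenitor list. Six2 is in the partner and progenitor lists, and Gdnf in this list and the progenitor list. Of the WT1 genes, Cited1, Wnt4, Podxl and Nphs1 are also cell type markers here, as are Ret, Gata3, Wnt9b, Lhx1 and Lmx1b of this list. The medians of these lists are therefore not separate evidence, nor are they separate from cell content.

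The genes most like each regulator were found by the root mean square difference of log2 values over the 8 libraries after each gene's own mean was subtracted, among 14132 named genes. For Sall2 they were Tcf4 (0.027), Rfc1 (0.038) and Eaf1 (0.041), far below Sall2's own spread of 0.23. For Sall1 they were Rai1 (0.067), Rere (0.070) and Nuak1 (0.076), against a spread of 0.34. For Wt1 they were Zfp943, Tmem131 and Actn1 (0.076 to 0.078, spread 0.28), and for Pax2 Pprc1, Sf1 and Dhx37 (0.082 to 0.088, spread 0.34). The other regulators were less alike than these, from 0.12 between Sall1 and Sall2 to 0.29 between Wt1 and Sall1 among the 4 abundant genes. For Sall3 the nearest genes were Baiap2l2, Ltb4r2 and C1qtnf5 (0.37 to 0.40, spread 1.07), and for Sall4 D3Ertd751e, Acsbg1 and Adcy8 (0.26 to 0.38, spread 0.80). All values in a library share its depth and scaling.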

How the data were processed

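Kidney pairs were snap frozen and paired-end polyA libraries were made, per the labels' protocols. Per the submitters' processing notes the authors used kallisto 0.46.0, DESeq2 1.40.2 and fastp 0.23.2 with build mm10, with no role or setting stated. The deposited log2 values, named as normalized, are log2(estimated count + 1) with no depth correction, since 73.6% of recovered values were whole within 1e-06 and library totals differed. The authors' table of comparisons holds log2 fold changes, p-values, a mean signal per gene and a statistic (score), per the file headers.

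Recovered counts were scaled by size factors from the median of ratios (0.361 in control 4, 1.07 to 1.27 elsewhere). Genes reaching 10 scaled counts in 4 or more libraries entered the test, on log2(scaled count + 1) by limma 3.58.1 (R 4.3.3; lmFit, eBayes with trend, two-sided, Benjamini-Hochberg over 14974 genes, threshold 0.05). Fold changes are on that scale, which understates those of low genes. Single values per library were compared with scipy 1.17.1 by exact permutation. P-values measure the spread between these 8 samples. The members, lists and tests were chosen with earlier results of these data known. Named genes are the members, Etv4 and Etv5, and the 3 genes most like each member. Each list adds up to 3 called genes, or else the 2 with the smallest p. Six2, Eya1, Inha, Pou5f1 and Ddx4, and others where marked, were added with values known. So were genes named for being in several lists. Positions are from GENCODE M21 on GRCm38, the assembly of mm10. On simulated data for 4 mutant against 4 control libraries (15004 genes tested), recovery was 67.7% for true changes of 1 on the log2 scale and 83.5% for changes of 2, and 5.73% of calls were false. Simulated counts were drawn independently for each gene, with no shift shared by many genes of a library. These rates may therefore not hold for the real libraries. Alternatives covered scaling, filters, pseudocount, trend, voom, blocks and each library left out. Figures used matplotlib 3.10.9 in Python 3.11.15.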

Additional observations from a re-analysis of the deposited data

How the results depend on the processing

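None of the 6 regulators passed the limma threshold in any of 22 alternative fits. Over the 6 genes these gave 131 adjusted p-values, of which 0.151 was the lowest. Wt1 stayed positive in each of the 22, and Sall4 stayed negative in each of the 21 that tested it. Pax2, at -0.05, turned to 0.085 by total counts, 0.42 without depth correction, 0.050 with the library name number as a block, 0.21 in the first name set, 0.16 in controls 1 to 3 against mutants 1 and 2, 0.029 without the second name set and 0.013 by total counts without Lars2, and ran from -0.19 to 0.16 with 1 library left out. With no correction for depth Sall1 stood at 0.20 and Sall2 at 0.27, and the all-gene median at 0.48, against 0.14 by total counts. Sall3 turned to -0.047 with that block and -0.12 in the first name set. The number of genes called, 45 (12 higher, 33 lower), was 11 (3 and 8) by total counts, 80 (62 and 18) without depth correction, 28 without trend, 69 with voom, 17 in the first name set, 142 in controls 1 to 3 against mutants 1 and 2, 179 without the second name set, and 2 to 161 with 1 library left out, the lowest without control 3 and the highest without control 4.

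With the replicate block 133 genes were called, 0 of them among the 6. Titles share numbers across groups, and deviations of same-numbered libraries correlated at 0.27, 0.098, -0.13 and 0.35 across genes. Controls 1, 2 and 4 each correlated best with the mutant of the same number, and control 3 with mutant 1. The numbers were not taken as pairs in the main fit, and whether they mark pairs was not settled. Relative to the progenitor list, the paired values were 1.5 for Wt1, 1.19 for Pax2, 0.97 for Sall1 and 1.04 for Sall2 (adjusted p = 0.188 each; 4 pairs cannot go below 0.125 by exact sign flips). In the same order these were 1.28, 1.26, 0.86 and 0.89 in the first name set, and 1.25, 1.24, 0.86 and 0.89 in controls 1 to 3 against mutants 1 and 2. With 1 library left out they ran from 1.36 to 1.57, 1.13 to 1.32, 0.88 to 1.01 and 0.96 to 1.09. These designs have fewer samples and could not pass. The Wt1 to Sall3 log2 ratio, -0.35, turned to 0.34 in the first name set and 0.11 in controls 1 to 3 against mutants 1 and 2, and ran from -0.98 to 0.087 with 1 library left out; Pax2 to Sall3, -0.66, turned to 0.33 and 0.10 in the same settings. Of 374 list medians under the alternatives, 342 moved by less than the spread among controls. The fits with 5 libraries or without the second name set, total counts without Lars2 and all ratios were chosen after seeing the data.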
